A study of Mus musculus with 45 samples.

Results

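The genes described here are 6 members of the imprinted cluster on distal mouse chromosome 7: H19, Igf2, Cd81, Cdkn1c, Slc22a18 and Phlda2. They were chosen by symbol from the deposited tables, which together list 15997 genes. The E5.5 and E5.75 tables hold all 6 and the E5.25 table holds 5, without a row for Slc22a18.

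The study followed gene expression along the proximal-distal axis of untreated mouse embryos just after implantation, from embryonic stage E5.25 through E5.5 to E5.75. Embryos were freed from the decidua, frozen and cut into numbered sections, tissue was taken by laser capture microdissection, and RNA was sequenced with Smart-seq2, a protocol for very small RNA amounts. E5.25 gave 7 sections, E5.5 gave 9 section numbers and E5.75 gave 17 sections, with 2 further E5.75 libraries of sections 6 and 7 marked VE, which usually stands for visceral endoderm. E5.75 sections 9 and 13 are not analysed here. The labels give no strain, sex or allele, and leave the direction of the numbering along the axis unsaid. The labels do not say whether sections of a stage come from 1 embryo or from several, and p-values thus refer to the spread between sections.

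Imprinted genes are expressed mainly from the allele of 1 parent. The cluster has a pair of control regions. The first lies upstream of H19, where binding of CTCF on the maternal allele keeps shared enhancers away from Igf2, so that the maternal allele makes H19 and the paternal allele makes Igf2. The second lies in the gene Kcnq1, where the paternal allele makes the long noncoding RNA Kcnq1ot1 and genes around it, among them Cdkn1c, Slc22a18 and Phlda2, are expressed mainly from the maternal allele. Igf2 is a secreted growth factor that drives growth of the placenta and fetus, and H19 is a noncoding RNA. Cdkn1c, also called p57Kip2, inhibits cyclin-dependent kinases, and Phlda2 limits growth of the placenta. Slc22a18 is a membrane transporter and Cd81 is a tetraspanin, a small membrane-spanning protein that organises other membrane proteins. The tables carry no information on alleles, so every value below is the sum over both parents' copies.

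In the mm10 build the members lie on chromosome 7 in the order H19, Igf2, Cd81, Cdkn1c, Slc22a18 and Phlda2. H19 (142575529 to 142578143, minus strand, a long noncoding RNA gene) and Igf2 (142650766 to 142666816, minus strand) are separated by 72.6 kb. Cd81 (143052739 to 143067934, plus strand) starts 385.9 kb further on. Another 390.4 kb separate it from Cdkn1c (143458339 to 143461050, minus strand). Slc22a18 (143473736 to 143499334, plus strand) begins 12.7 kb beyond Cdkn1c, and Phlda2 (143501545 to 143503150, minus strand) lies 2.2 kb beyond Slc22a18. Igf2 and H19 are taken here as the Igf2-H19 domain, and Cdkn1c, Slc22a18 and Phlda2 are set against it as the Cdkn1c-Phlda2 domain. Cd81 is counted with the latter by choice, as it lies about as far from Igf2 as from Cdkn1c. An antisense gene, which the tables list as Igf2as, overlaps Igf2 and has its own row. The use of strand in the quantification is not given in the sources used here, so reads from the overlapping stretch cannot be told apart. The same holds for the overlap of Cd81 with R74862.

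H19 and Igf2 are also hosts of microRNAs, shown here because a rise of either host gene is measured without them. The primary transcript of H19 holds Mir675 and the body of Igf2 holds Mir483, and neither has a row of its own in the tables. Their mature sequences from RefSeq (GRCm38.p6) are printed with the seed, bases 2 to 8, in capitals. No seed is shared between the 4 sequences.
mmu-miR-675-5p: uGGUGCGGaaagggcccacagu
mmu-miR-675-3p: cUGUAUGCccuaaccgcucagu
mmu-miR-483-5p: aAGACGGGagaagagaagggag
mmu-miR-483-3p: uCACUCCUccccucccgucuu

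The promoters of Phlda2, Igf2 and Cd81 are shown because these genes had different profiles along the sections. RefSeq promoter windows (GRCm38.p6, from 250 bases before to 50 bases after a transcript start) were at hand for 4 of the 6 members: 1 each for Phlda2, Slc22a18 and Cd81 and 4 for Igf2. Both strands were searched for TATAAA, a core sequence of many promoters, for GGAATG, a core sequence of TEAD factors, and for GCCNNNGGC, a core sequence of AP-2 factors. The share of all 32851 RefSeq windows that hold them was 13.6% for TATAAA, 14.7% for GGAATG and 16.6% for GCCNNNGGC. The Phlda2 window (chr7:143502475-143502774, minus strand) had 26 CpG dinucleotides against a median of 7 over all windows. It held TATAAA at -30 and GCCNNNGGC at -124 from the transcript start. The most downstream of the Igf2 windows (chr7:142657447-142657746, minus strand) had 7 CpG and held GGAATG at -163. Other Igf2 windows, not printed, differed from it. The one starting at 142658755 had 24 CpG and held GCCNNNGGC at -203 and GGAATG at -180. The one starting at 142661222 had 14 CpG and held GGAATG at -218 and -112, and the one starting at 142666767 had 2 CpG and no match. The Cd81 window (chr7:143052500-143052799, plus strand) had 23 CpG and held TATAAA at 6 bases after the start. Capitals mark the matches in the windows printed below, and all matches are letters in a window and not binding sites.
Phlda2: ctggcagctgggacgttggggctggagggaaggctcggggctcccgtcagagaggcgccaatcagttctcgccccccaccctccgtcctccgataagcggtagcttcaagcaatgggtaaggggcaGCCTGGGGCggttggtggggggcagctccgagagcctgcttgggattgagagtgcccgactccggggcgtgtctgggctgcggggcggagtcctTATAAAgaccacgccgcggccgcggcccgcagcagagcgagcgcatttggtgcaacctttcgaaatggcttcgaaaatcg
Igf2: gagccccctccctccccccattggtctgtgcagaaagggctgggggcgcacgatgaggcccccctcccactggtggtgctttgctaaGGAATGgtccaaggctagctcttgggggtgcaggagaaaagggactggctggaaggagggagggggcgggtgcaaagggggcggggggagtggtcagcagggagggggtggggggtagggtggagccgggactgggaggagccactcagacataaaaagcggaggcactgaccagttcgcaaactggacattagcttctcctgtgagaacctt
Cd81: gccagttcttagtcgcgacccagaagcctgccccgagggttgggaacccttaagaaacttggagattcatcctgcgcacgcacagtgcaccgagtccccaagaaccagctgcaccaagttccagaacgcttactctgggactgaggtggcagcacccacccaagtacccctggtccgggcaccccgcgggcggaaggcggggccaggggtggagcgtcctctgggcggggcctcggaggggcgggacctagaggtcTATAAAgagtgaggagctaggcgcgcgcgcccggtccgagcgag

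The libraries differed in how many genes they held. Values are log2(FPKM + 1), where FPKM counts fragments per kilobase of transcript and per library size, and so is a level per length. The tables hold no counts, so depth is unknown. At E5.75, sections 1 and 2 had 3211 and 3424 genes at an FPKM of at least 1, sections 3 to 19 had 5303 to 8217, and the VE libraries of sections 6 and 7 had 1496 and 2147. Summed FPKM of 10 trophoblast markers was 179 to 1200 in sections 10 to 19 and 0 to 382 in sections 1 to 8, and that of 8 epiblast markers was 43.2 to 177 in sections 10 to 19 and 220 to 854 in sections 1 to 8. Trophoblast is the lineage of the placenta and epiblast is the source of the embryo proper. Markers of the visceral endoderm summed to 0 to 103 in sections 10 to 19 and to 1.03 to 175 in sections 1 to 8.

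At E5.75 the members had different profiles along the axis. Igf2 formed a step between sections 8 and 10 and stayed near 1 level from there. H19 also stepped up between sections 8 and 10, and its change from section 10 to section 19 did not pass. Unlike Igf2, H19 was also high in sections 1 and 2, at 4.51 and 5.28. Phlda2 went on rising from section 12 to section 18, where it reached the highest level of any member, 1110 FPKM. Cdkn1c was detected in every section from 3 on and changed less, Slc22a18 appeared above an FPKM of 1 in 3 high-numbered sections, and Cd81 had no trend that passed the test.

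**Figure D1:**
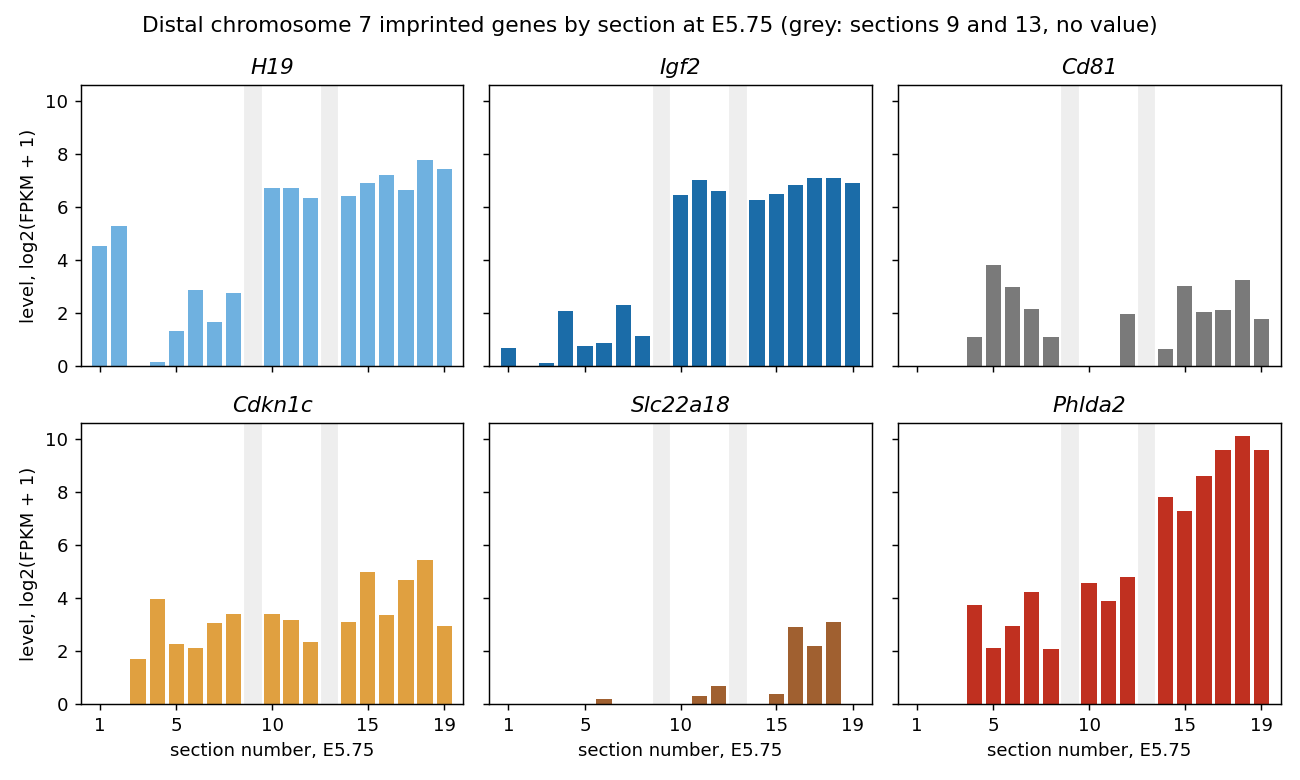
Level of each gene, log2(FPKM + 1), in each of the 17 E5.75 sections, 1 bar per section, with the section number on the horizontal axis and the genes in their order on the chromosome. Igf2 stands at 6.25 to 7.11 in sections 10 to 19 and at 0 to 2.29 in sections 1 to 8, while Phlda2 ranges from 3.88 in section 11 to 10.12 in section 18.

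Igf2 stood at 6.47, 7.0 and 6.61 in sections 10 to 12 and at 6.25, 6.50, 6.81, 7.08, 7.11 and 6.92 in sections 14 to 19. In sections 1 to 8 it stood at 0.68, 0, 0.10, 2.07, 0.75, 0.89, 2.29 and 1.14. Thus sections 10 to 19 and sections 1 to 8 did not overlap, and how many of all genes did the same was not counted. Within sections 10 to 19 the standard deviation was 0.30 (n = 9). As FPKM, Igf2 was at 75.4 to 137 in sections 10 to 19 and at no more than 3.91 in sections 1 to 8. The highest value was 7.11, and a straight line through such a step gives a change larger than that. The fitted change from section 1 to section 19 was 8.35 ± 0.92 (standard error, limma, Benjamini-Hochberg adjusted p = 2.13e-06, n = 17). It passed the test under all 25 alternatives run. In bulk tissue of this kind, fewer cells that make a transcript and less of it per cell cannot be told apart.

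H19 stood at 6.73, 6.70 and 6.34 in sections 10 to 12 and at 6.42, 6.92, 7.22, 6.63, 7.76 and 7.44 in sections 14 to 19. In sections 3 to 8 it stood at 0, 0.14, 1.33, 2.87, 1.68 and 2.77, and in sections 1 and 2 at 4.51 and 5.28. H19 was therefore high at both ends of the numbering and low between them, while Igf2 was low in sections 1 and 2. The fitted rise of H19 was 6.29 ± 1.17 (limma, Benjamini-Hochberg adjusted p = 0.000727, n = 17), and without sections 1 and 2 it was 7.92 (adjusted p = 1.33e-06). Visceral endoderm markers summed to 175 FPKM in section 1 and 54.8 FPKM in section 2, and to 1.03 to 34.3 FPKM in sections 3 to 8. Rn45s, the ribosomal RNA precursor, took 52.8% of FPKM in section 1, 16.4% in section 2 and 2.88% to 16.2% in sections 3 to 19. Blood markers summed to 233 FPKM in section 1, 0 in section 2 and at most 43.9 in sections 3 to 19. The part of these in the H19 levels was not tested.

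The listing of Phlda2 was 0 in sections 1 to 3, and then 3.76, 2.14, 2.93, 4.22 and 2.08 in sections 4 to 8. It stood at 4.56, 3.88 and 4.80 in sections 10 to 12 and at 7.83, 7.30, 8.59, 9.58, 10.12 and 9.59 in sections 14 to 19. Sections 10 to 12 thus lay close to the highest of sections 4 to 8, and the large step was between sections 12 and 14. The whole-axis change, 10.13 ± 0.77 (limma, Benjamini-Hochberg adjusted p = 2.14e-08, n = 17), was above 8 under every alternative run.

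Cdkn1c was listed at 0 in sections 1 and 2. It stood at 1.71, 3.97, 2.28, 2.13, 3.07 and 3.38 in sections 3 to 8 and at 3.39, 3.18 and 2.35 in sections 10 to 12. In sections 14 to 19 it stood at 3.08, 4.97, 3.35, 4.70, 5.43 and 2.95. The ranges of sections 3 to 8 and sections 10 to 19 overlapped over most of their width. Its rise of 3.29 ± 0.80 passed (limma, Benjamini-Hochberg adjusted p = 0.00616, n = 17). Without sections 1 and 2 it was 1.86 and did not pass (adjusted p = 0.0791).

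Slc22a18 was at 2.90, 2.19 and 3.10 in sections 16 to 18 and at no more than 0.67 in any of the other 14 sections, 10 of which were listed at 0. Its rise of 1.98 ± 0.62 passed (limma, Benjamini-Hochberg adjusted p = 0.0261, n = 17). It did not pass under 5 of 25 alternatives. Among these were the fits without section 17 or section 18 (limma, Benjamini-Hochberg adjusted p = 0.0587 and 0.0869). In section 19, at the end of the numbering, Slc22a18 was again at 0, unlike its neighbour Phlda2.

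Cd81 was at 3.80, 2.98 and 2.15 in sections 5 to 7, at 0 in sections 10 and 11, and at 0.63 to 3.26 in sections 14 to 19. Its change of 1.52 ± 0.88 did not pass (limma, Benjamini-Hochberg adjusted p = 0.216, n = 17). In all, 5 of the 6 members rose at E5.75, where 18.9% of the 11149 genes tested rose. The median change of the members was 4.79, against 0.80 over all genes tested. With a covariate for how many genes a section held, 405 of the 11149 genes tested rose, and 3 members passed. These were Igf2, at 8.40 (adjusted p = 0.000392), H19, at 8.98 (adjusted p = 0.000744), and Phlda2, at 10.20 (adjusted p = 1.12e-05), in Benjamini-Hochberg adjustment in limma.

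Fits within each side of section 9 showed where the changes lay. In sections 10 to 19, Phlda2 rose by 6.53 ± 0.59 (limma, Benjamini-Hochberg adjusted p = 7.61e-05, n = 9 sections) and was the only member of 6 to pass. The share of all genes that rose there was 1.13%. Igf2 changed by 0.43 ± 0.38 in the same sections (adjusted p = 0.657) and H19 by 0.95 ± 0.41 (adjusted p = 0.286). The changes of Cdkn1c (1.37 ± 0.84), Slc22a18 (1.87 ± 1.03) and Cd81 (2.41 ± 0.90) did not pass either (Benjamini-Hochberg adjustment in limma, adjusted p = 0.208 to 0.478). The Phlda2 change was between 5.89 and 6.61 under all 16 alternatives and passed in each. Summed markers of the decidua, the maternal tissue around the embryo, were 5.11 to 311 FPKM in sections 10 to 19, with 5.11 in section 12 and 311 in section 19. Of the 10 trophoblast markers, 4 rose in the same sections (Krt7 by 6.83, Gata2 by 5.26, Prl3d1 by 8.83 and Hand1 by 2.94), 2 fell (Cdx2, at -5.42, and Eomes, at -3.33) and 4 did not pass (limma, Benjamini-Hochberg). Cdx2 and Eomes are transcription factors of trophoblast stem cells, and Prl3d1 is a hormone of trophoblast giant cells. Krt7, Cdx2 and Eomes passed under all 16 alternatives, Gata2 and Hand1 under 14 and Prl3d1 under 12. Of the blood markers Cd52 rose by 4.86 and passed under 11 of 16 alternatives. The part of all these in the rise of Phlda2 was not tested.

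In sections 1 to 8 none of the 5 members tested passed, and the share of all genes that passed in either direction was 0.0% (0 of 8751 genes in limma, with 2394 at an unadjusted p under 0.05). Changes there were 3.57 for Phlda2, 3.22 for Cdkn1c, 2.50 for Cd81, 1.31 for Igf2 and -1.70 for H19. These changes include the step up in detection after section 2, and without sections 1 and 2 the change of H19 was 2.85 (limma, Benjamini-Hochberg adjusted p = 0.422).

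Other genes in or next to the cluster show which of these profiles occurred beside those of the members. Ascl2, a transcription factor of the ectoplacental cone that lies between Igf2 and Cd81, stood at 2.13, 0 and 0.87 in sections 10 to 12 and at 3.88, 5.08, 5.91, 5.53, 5.82 and 4.71 in sections 14 to 19. In sections 1 to 8 it was no higher than 1.28. Ascl2 rose within sections 10 to 19 by 5.34 ± 1.01 (limma, Benjamini-Hochberg adjusted p = 0.0171, n = 9), and did not pass without section 11 (4.43) or section 18 (5.31). Like Phlda2, Ascl2 had its large step between sections 12 and 14, and unlike Igf2 it was low in sections 10 to 12.

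**Figure D2:**
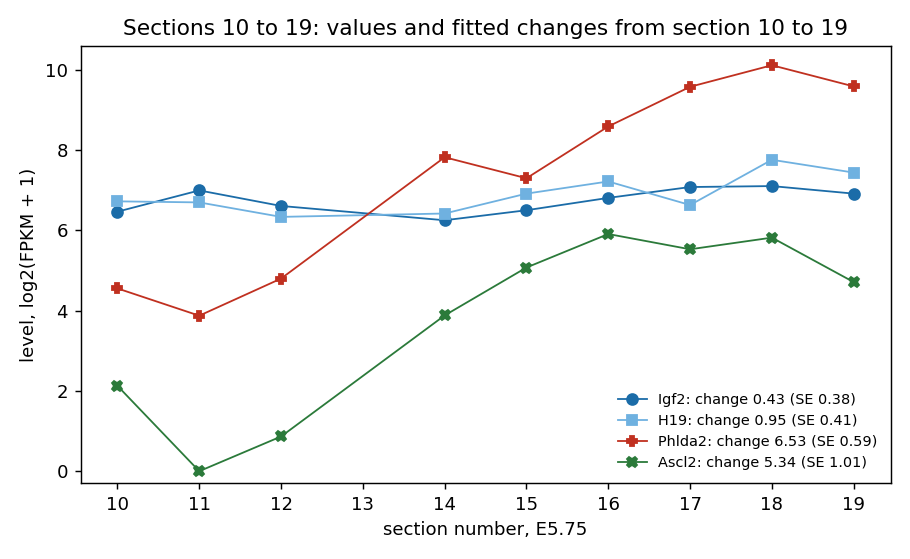
Level of Igf2, H19, Phlda2 and Ascl2, log2(FPKM + 1), in the 9 E5.75 sections from 10 to 19, 1 point per section, with the fitted change and its standard error in the legend. Phlda2 and Ascl2 change by 6.53 and 5.34, while Igf2 and H19 change by 0.43 and 0.95.

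Igf2as, the antisense gene at Igf2, stood at 2.07, 3.65 and 2.44 in sections 10 to 12 and at 0.10 to 2.52 in sections 14 to 19, against 0 to 0.55 in sections 1 to 8. Its whole-axis rise was 2.06 ± 0.72 (limma, Benjamini-Hochberg adjusted p = 0.0451, n = 17) and passed under 6 of 24 alternatives. Kcnq1ot1, the noncoding RNA of the Cdkn1c-Phlda2 domain, was at 1.69 to 2.82 in sections 10 to 19 and at 0.83 to 2.42 in sections 1 to 8, with a change of 0.62 ± 0.57 that did not pass (limma, Benjamini-Hochberg adjusted p = 0.455). At E5.5 Kcnq1ot1 fell by 2.28 ± 0.77 (adjusted p = 0.0352, n = 9), opposite in sign to Igf2 and Phlda2. Its level at E5.5 was 4.03 in section 1 and 0.91 to 2.33 in the other sections, and without section 1 the change was -1.16 and did not pass (limma, Benjamini-Hochberg adjusted p = 0.226). Nap1l4, a histone chaperone gene just beyond Phlda2, changed by 2.09 ± 0.79 (adjusted p = 0.0619). At E5.75 Kcnq1ot1 and Nap1l4 thus had no step at section 9 or section 13 of the size seen for Igf2 and Phlda2.

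At E5.75, where 18.9% of all genes tested rose, 7 of 15 other genes in or next to the cluster rose. None of the 15 fell and 8 did not pass. The median change of the 15 was 2.06, against 0.80 over all genes tested. The smallest p-values after that of Ascl2 (6.41 ± 0.87 over the whole axis, adjusted p = 2.72e-05) were those of Ctsd, a lysosomal protease, at 3.82 ± 0.77 (adjusted p = 0.00144), Lsp1, an actin-binding protein of leukocytes, at 2.26 ± 0.57 (adjusted p = 0.00761) and Mrpl23, a mitochondrial ribosomal protein, at 3.02 ± 0.98 (adjusted p = 0.0318, all by limma, Benjamini-Hochberg). Mrpl23 did not pass without section 1, at 1.55. Within sections 10 to 19, where 1.13% of all genes rose, Ascl2 and Ctsd (3.76 ± 0.79) passed of 14 genes of this list tested. Ctsd passed under 10 of 16 alternatives.

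The domains were set against each other by differences of log2 values within each section. A shift common to both genes drops out where both lie well above 0. Where a gene is listed at 0 it does not, and the difference then holds only the level of the other gene. Over the whole E5.75 axis, Igf2 gained on Cdkn1c by 5.06 ± 1.28 (permutation test with 100000 resamples, p = 0.00218, adjusted p = 0.0131 over 12 pairs and stages). Igf2 was above Cdkn1c by 1.53 to 4.26 in sections 10 to 19 and stood at -2.25 to -0.78 relative to it in sections 3 to 8. Igf2 minus Phlda2 showed no whole-axis trend that passed, at -1.78 ± 1.31 (permutation p = 0.196, adjusted p = 0.214). Its values turned sign along the axis, at -2.04 to 0.10 in sections 3 to 8, at 1.91, 3.12 and 1.81 in sections 10 to 12, and at -3.01 to -0.80 in sections 14 to 19.

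**Figure D3:**
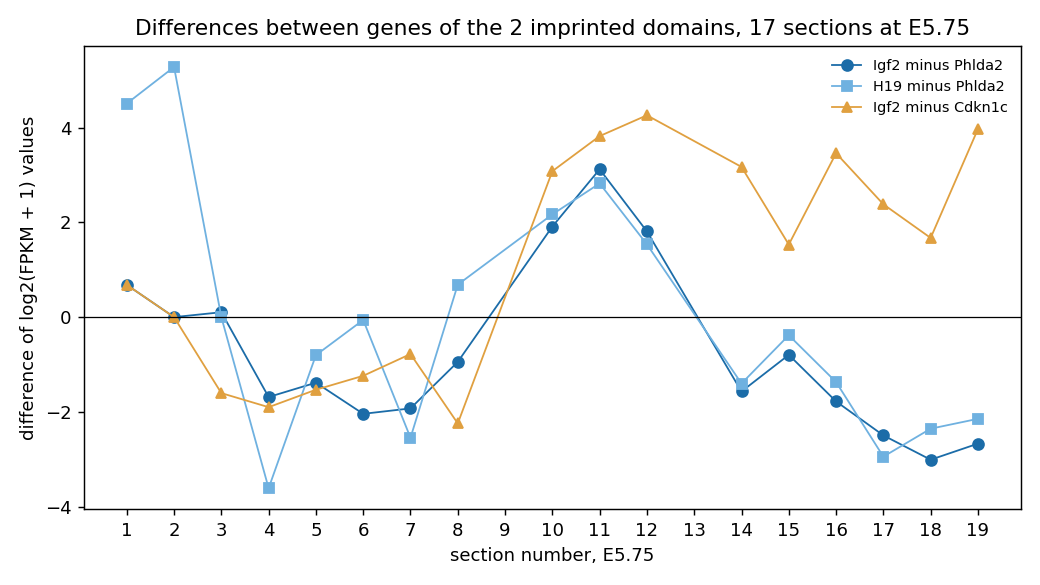
Difference of log2(FPKM + 1) values between a gene of the Igf2-H19 domain and a gene of the Cdkn1c-Phlda2 domain in each of 17 E5.75 sections, 1 point per section, with 0 meaning equal levels. Igf2 minus Phlda2 is 1.81 to 3.12 in sections 10 to 12 and -3.01 to -0.80 in sections 14 to 19, while Igf2 minus Cdkn1c stays above 1.5 from section 10 on.

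Within sections 10 to 19, a range chosen for these pairs after the values were seen, the Igf2 minus Phlda2 difference changed by -6.10 ± 0.87 (exact permutation test, p = 0.000361, adjusted p = 0.00141 over 4 pairs, n = 9). The H19 minus Phlda2 difference changed by -5.58 ± 0.87 (exact permutation test, p = 0.000703, adjusted p = 0.00141). Neither Igf2 nor H19 passed against Cdkn1c there, with changes of -0.95 ± 1.0 and -0.43 ± 0.98 (exact permutation test, p = 0.365 and 0.665). The whole-axis differences of H19, -3.84 ± 1.77 against Phlda2 and 3.0 ± 1.94 against Cdkn1c, did not pass (permutation test, adjusted p = 0.0989 and 0.184). Without sections 1 and 2, where H19 was high, H19 gained on Cdkn1c by 6.06 (adjusted p = 0.00696).

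At E5.5 Igf2 and Phlda2 rose with section number, Phlda2 by more, and the changes of H19, Cdkn1c and Cd81 did not pass. Igf2 stood at 2.13, 0, 0.59 and 3.38 in sections 1, 2, 4 and 5 and at 5.30, 4.94, 5.27, 5.08 and 5.48 in sections 6 to 10. Phlda2 was listed at 0 in sections 1 and 2 and stood at 0.46 and 1.68 in sections 4 and 5 and at 4.87, 4.77, 5.02, 5.85 and 7.96 in sections 6 to 10. Igf2 was thus level from section 6, while Phlda2 was level from section 6 to 8 and highest in section 10. Igf2 rose by 5.31 ± 1.16 (adjusted p = 0.00378) and Phlda2 by 8.15 ± 1.01 (adjusted p = 0.000449, both by limma, Benjamini-Hochberg, n = 9 section numbers). The fitted change of Phlda2 was above its highest value, 7.96.

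H19 stood at 7.18, 4.08, 3.36 and 6.40 in sections 1, 2, 4 and 5 and at 7.64, 7.57, 7.59, 7.13 and 7.10 in sections 6 to 10. It was thus as high in section 1 as in sections 6 to 10, while Igf2 in section 1 was below all of sections 6 to 10. Its fitted change of 2.39 ± 1.24 did not pass (adjusted p = 0.144), and without section 1, a library in which 69.8% of FPKM was the ribosomal RNA precursor Rn45s, it was 3.85 and passed (limma, Benjamini-Hochberg adjusted p = 0.0163). Visceral endoderm markers summed to between 10.2 and 192 FPKM in sections 6 to 10 and to between 4.41 and 597 in sections 1 to 5, and their part in the H19 levels was not tested. In section 1 Gapdh, a glycolytic enzyme made by nearly all cells, was listed at 0, against 5.98 in section 2 and 8.41 to 8.64 in sections 4 to 10. Blood markers summed to 386 FPKM in section 1 and to 2.24 to 33.9 FPKM in the other sections. Values of 0 in section 1 are therefore listings in a library where Gapdh is also at 0.

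Cdkn1c was at 0, 0.65, 2.37 and 1.84 in sections 1, 2, 4 and 5 and at 2.89, 1.75, 2.80, 2.49 and 1.02 in sections 6 to 10, with a change of 1.58 ± 0.91 that did not pass (limma, Benjamini-Hochberg adjusted p = 0.189). Its lowest value above section 2 was in section 10, where Phlda2 was highest. Cd81 was at 2.05 in section 5, at 1.14 in section 10, at 0.67 or less elsewhere, and its change was 0.35 ± 0.69 (adjusted p = 0.707). Slc22a18 was at 0.77 in section 6, at 0.78 in section 10 and at 0 in the other 7 section numbers, and was too low to test. So 2 of 5 members tested rose at E5.5, against 28.3% of all 8251 genes. With detected genes as a covariate no gene passed at E5.5 (limma, 0 of 8251), while the change of Phlda2 was 8.10 ± 2.17 and that of Igf2 4.93 ± 2.55, close in size to the values above and with larger errors.

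Between the domains at E5.5, the H19 minus Phlda2 difference changed by -5.76 ± 1.16 (exact permutation test, p = 0.000852, adjusted p = 0.0102, n = 9). Igf2 minus Phlda2 changed by -2.84 ± 1.01 (exact permutation test, p = 0.0224, adjusted p = 0.0673) and Igf2 minus Cdkn1c by 3.74 ± 1.58 (exact permutation test, p = 0.0477, adjusted p = 0.0989), neither of which passed after adjustment. H19 minus Cdkn1c changed by 0.81 ± 1.92 (exact permutation test, adjusted p = 0.7). Section 10 held much of the gap between Igf2 and Phlda2, and without it the change was -1.62.

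At E5.25, the earliest stage, Phlda2 was listed at 0 in all 4 of sections 1 to 4 and stood at 6.36, 6.95 and 5.76 in sections 6, 7 and 8. Igf2 stood at 0, 0, 1.10 and 0 in sections 1 to 4 and at 4.54, 4.69 and 4.96 in sections 6 to 8. For both genes sections 6 to 8 and sections 1 to 4 did not overlap, and how many of all genes did the same was not counted. The fitted change of Phlda2 was 8.13 ± 1.73 and passed (limma, Benjamini-Hochberg adjusted p = 0.0442, n = 7), and that of Igf2, 5.93 ± 1.51, did not (adjusted p = 0.0543). Both fitted changes exceed the highest values, 6.95 and 4.96, as a straight line through a step can. Without section 6 or without section 7, Phlda2 did not pass (adjusted p = 0.0625 and 0.0616), and Igf2 passed when section 2, 3 or 4 was left out.

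H19 was the one member above 0 in every E5.25 section, at 2.83, 0.82, 2.44 and 4.43 in sections 1 to 4 and at 6.28, 5.93 and 6.30 in sections 6 to 8. Its change was 5.13 ± 1.70 (limma, Benjamini-Hochberg adjusted p = 0.0644). Cdkn1c was at 0, 0, 0.33 and 0 in sections 1 to 4 and at 2.99, 0.31 and 1.90 in sections 6 to 8, and its change was 1.98 ± 0.98 (adjusted p = 0.151). Cd81 had values in 2 sections only, 2.71 in section 6 and 0.23 in section 8. Thus 1 of 4 members tested rose at E5.25, where 0.378% of the 7148 genes did. Sections 6 to 8 had 5636 to 6461 genes at an FPKM of at least 1 and sections 1 to 4 had 2046 to 4282, and with detected genes as a covariate no gene passed, where Phlda2 stood at 4.5 ± 2.40 and Igf2 at 3.03 ± 1.89.

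Igf2 gained on Cdkn1c at E5.25 by 3.95 ± 1.05 (exact permutation test, p = 0.0119, adjusted p = 0.0476, n = 7), a result that was lost under 9 of 10 alternatives. Igf2 minus Phlda2 changed by -2.19 ± 0.99 (exact permutation test, adjusted p = 0.127), H19 minus Phlda2 by -3.0 ± 1.80 (adjusted p = 0.184) and H19 minus Cdkn1c by 3.15 ± 1.30 (adjusted p = 0.109). Values of 0 in sections 1 to 4 enter all of these differences.

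**Figure D4:**
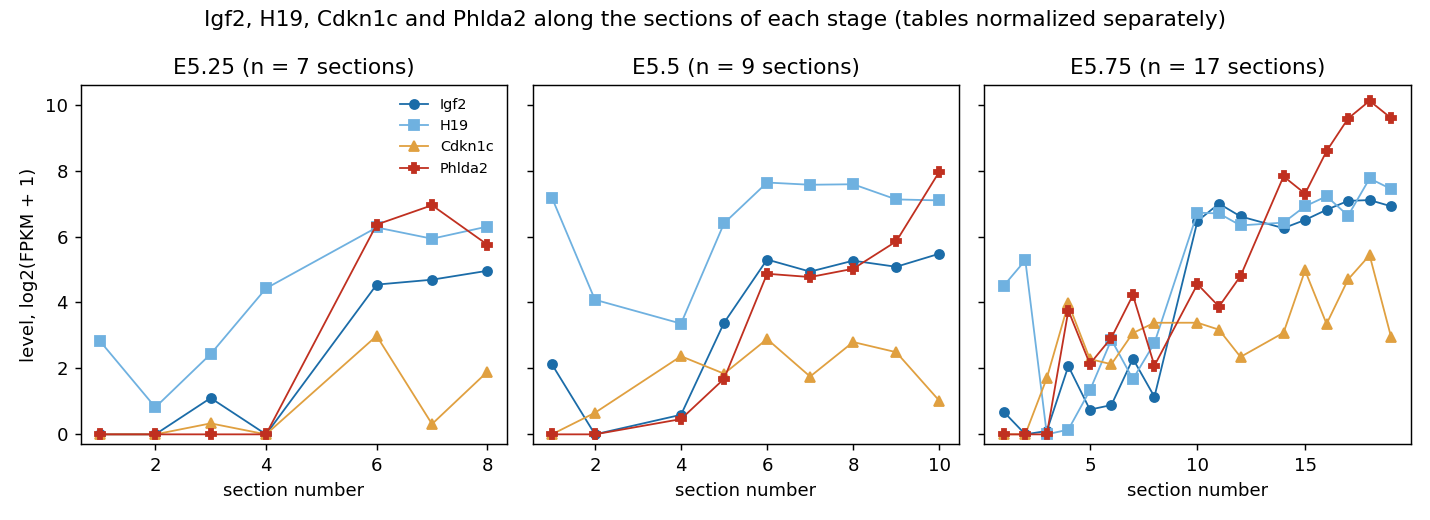
Level of Igf2, H19, Cdkn1c and Phlda2, log2(FPKM + 1), against section number in a panel per stage, 1 point per section, in tables normalized separately. In the highest section of each stage Phlda2 stands at 5.76, 7.96 and 9.59 and Igf2 at 4.96, 5.48 and 6.92, and H19 is also high in section 1 of E5.5 and sections 1 and 2 of E5.75.

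In the last section of the earliest stage, E5.25, Igf2 was at 4.96 and Phlda2 at 5.76. In the last E5.5 section they were at 5.48 and 7.96, and in the last E5.75 section at 6.92 and 9.59. The tables were normalized separately and a section number does not mark the same place at each stage, so these levels were not tested against each other.

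The VE libraries of sections 6 and 7 differed in kind from the sections. H19 stood at 5.54 (VE of section 6) and 9.08 (VE of section 7), against 2.87 and 1.68 in sections 6 and 7 themselves. Cd81 stood at 3.61 and 7.01 in the VE libraries, against 2.98 and 2.15 in the sections. For both genes each VE library was above its section and the groups did not overlap, and the VE library of section 7 was the highest of all E5.75 libraries. The smallest p that a permutation test can give for 2 against 2 is 0.333, and how many of all genes had such groups was not counted. The differences, 5.04 ± 1.67 for H19 and 2.74 ± 1.54 for Cd81, did not pass (adjusted p = 0.0861 and 0.241, Benjamini-Hochberg adjustment in limma, n = 2 and 2). Against sections 3 to 8, a choice made after the values were seen, they were 5.84 and 3.46 and passed (adjusted p = 0.00244 and 0.0413).

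In the same libraries Igf2 stood at 1.44 and 0 in VE and at 0.89 and 2.29 in the sections, a difference of -0.87 ± 0.82 (limma, Benjamini-Hochberg adjusted p = 0.472). The high H19 of the VE libraries thus had no matching level of Igf2, as in sections 1 and 2. Cdkn1c was listed at 0 in both VE libraries, against 2.13 and 3.07 in the sections, and Phlda2 was listed at 0 in both, against 2.93 and 4.22. Both fell (Cdkn1c by 2.60 ± 0.41, adjusted p = 0.0162, and Phlda2 by 3.58 ± 0.56, limma, Benjamini-Hochberg adjusted p = 0.0164). Slc22a18 was at 0 in both VE libraries, against 0.20 and 0, and was not tested.

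**Figure D5:**
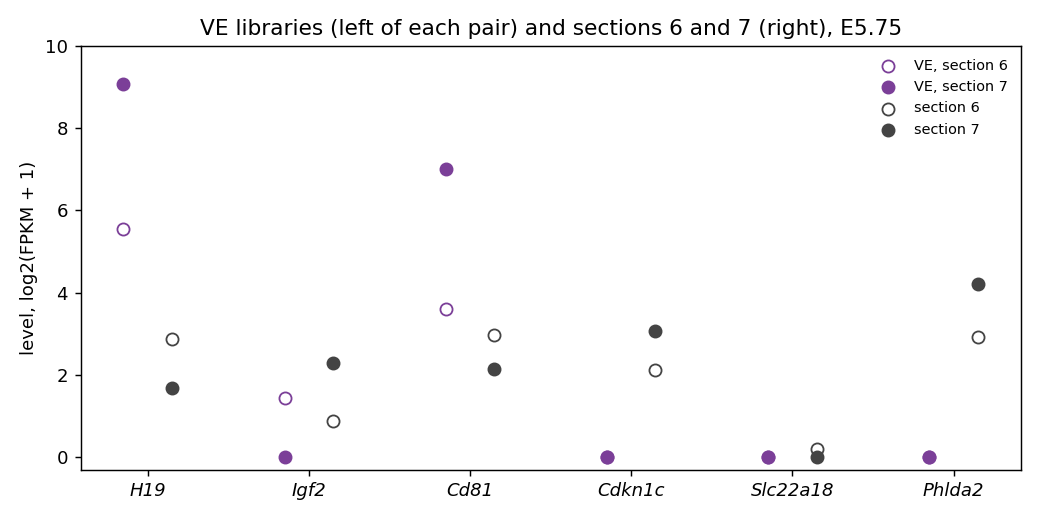
Level of each gene, log2(FPKM + 1), in the VE libraries of sections 6 and 7 (left of each pair) and in sections 6 and 7 (right) at E5.75, with 1 point per library, open for section 6 and filled for section 7. H19 and Cd81 lie higher in VE, at up to 9.08 and 7.01, and Cdkn1c and Phlda2 are at 0 in both VE libraries.

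The fall of 2 of 5 members tested stands beside 56.6% of all 6413 genes that fell in VE, with a median change of -2.09. After quantile normalization no gene passed, and Cdkn1c was at -0.89 (adjusted p = 0.0676) and Phlda2 at -1.90 (adjusted p = 0.131). Rn45s took 62.2% and 48.8% of FPKM in the VE libraries, against 5.7% and 3.89% in sections 6 and 7. Visceral endoderm markers summed to 49.7 and 470 FPKM in the VE libraries, with 4 and 5 of 12 at an FPKM of at least 1, against 34.3 and 17.3 in the sections. Of these 12 markers, Ttr, a thyroid hormone carrier, was at 0 and 6.44 in VE. Amn, of the endocytic receptor complex, was at 0 and 7.71, and Apob, an apolipoprotein, at 3.55 and 5.53. In the VE library of section 6, 8 of the 12 markers, Ttr and Amn among them, were thus listed at 0. Apob was among the 4 at an FPKM of at least 1 there. Blood markers summed to 4270 and 4.54 FPKM in VE and to 0.549 and 2.56 in the sections, and their part in the VE values was not tested. Of 8 epiblast markers, 2 and 6 had an FPKM of at least 1 in VE, against 8 and 8 in the sections, and Pou5f1, a transcription factor of the epiblast, stood at 0 and 6.73 in VE, against 7.53 and 6.95 in the sections. Trophoblast markers summed to 602 and 64 FPKM in VE, against 382 and 23.9 in the sections. Markers of other tissues were thus also present in the libraries marked VE, and their part in the values was not tested.

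Lists of related genes place the members among their partners at E5.75, where 18.9% of all genes tested rose and the median change was 0.80. Of 15 genes of IGF signalling tested, 5 rose, 1 fell and 9 did not pass, with a median change of 1.04. Akt1, a kinase downstream of the receptors, rose by 5.2 ± 0.61 (adjusted p = 4.22e-06). Igf2r, the receptor that clears Igf2, rose by 2.29 ± 0.69 (adjusted p = 0.022) and Insr, the insulin receptor, by 1.52 ± 0.51 (adjusted p = 0.036), and neither passed with quantile normalization or without section 1. Igfbp2, a binding protein of IGFs, fell by 6.85 ± 1.18 (adjusted p = 0.000373, all by limma, Benjamini-Hochberg, n = 17). Igf2 and its binding protein Igfbp2 thus changed in opposite directions along the sections.

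Of 14 genes that act in setting or keeping imprints, 2 rose, none fell and 12 did not pass, with a median change of 0.14, so that the share that rose was near that of all genes. Zfp568, a zinc finger protein that represses an Igf2 transcript in mouse placenta, rose by 2.72 ± 0.59 (adjusted p = 0.00291), and Suz12, a Polycomb subunit, rose by 2.90 ± 0.79 (adjusted p = 0.0121). Ctcf, which insulates Igf2 from its enhancers on the maternal allele, changed by -1.38 ± 0.56 (adjusted p = 0.0786) and Smchd1, a chromatin protein of imprinted regions, by 1.69 ± 0.80 (adjusted p = 0.131, all by limma, Benjamini-Hochberg). After quantile normalization Zfp568 and Suz12 did not pass, at 1.43 and 1.60, and Ctcf passed at -1.92 (adjusted p = 0.023).

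Of 5 other CDK inhibitors and PHLDA genes tested, the relatives of Cdkn1c and Phlda2, 1 rose. Cdkn2d, a CDK inhibitor of the INK4 family, rose by 2.83 ± 0.54 (adjusted p = 0.000963). Phlda3, at 1.82 ± 0.96 (adjusted p = 0.173), Cdkn1a, at 1.15 ± 0.95 (adjusted p = 0.395), and Phlda1, at 1.02 ± 0.82 (adjusted p = 0.382, all by limma, Benjamini-Hochberg), did not pass over the whole axis. Within sections 10 to 19, where Phlda2 rose, Phlda1 fell by 3.47 ± 0.75 (limma, Benjamini-Hochberg adjusted p = 0.0298) and passed under 8 of 16 alternatives.

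Of 9 tetraspanins and partners of Cd81 tested, 5 rose and 4 did not pass, with a median change of 2.92. The smallest p-values were those of Cd63, at 7.90 ± 0.89 (adjusted p = 3.16e-06), Cd9, at 5.83 ± 0.78 (adjusted p = 2.32e-05), Cd82, at 3.02 ± 0.70 (adjusted p = 0.0043) and Igsf8, a partner of Cd9 and Cd81, at 3.50 ± 0.82 (adjusted p = 0.00487, all by limma, Benjamini-Hochberg). Cd81, at 1.52, did not pass.

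Marker lists of other cell types also changed along the E5.75 sections, and their part in the members' changes was not tested. Of 10 trophoblast markers, 8 rose, among them the transcription factors Tfap2c (9.40 ± 0.85, adjusted p = 2.58e-07), Hand1 (8.38 ± 0.92), Gata3 (5.81 ± 0.66) and Elf5 (6.86 ± 0.87). Of 8 epiblast markers, 6 fell, among them Pim2 (-8.15 ± 1.06, adjusted p = 1.57e-05), Dnmt3b (-4.02 ± 0.73), Otx2 (-5.38 ± 1.02) and Pou5f1 (-7.16 ± 1.54). Of 11 visceral endoderm markers tested none passed, with Gata6 at 1.66, Amn at 2.48, Cubn at 1.24 and Apoa1 at -1.92. Of 6 decidua markers 4 rose, Cryab by 5.69, Htra1 by 3.55, Cebpb by 2.57 and Prl8a2 by 4.60, and of 2 blood markers tested Cd52 rose by 3.51, with the alpha globin genes at -1.03 (Benjamini-Hochberg adjustment in limma).

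The genes most like each member over the 17 E5.75 sections were taken by Pearson's correlation of log2 values, a description in which all points share libraries and their detection. For Igf2 they were Tinagl1, a secreted matrix protein (r = 0.98), Tfap2c (r = 0.98), the fatty acid binding protein Fabp3 (r = 0.98), the glycosyltransferase Mgat4b (r = 0.98) and Sfmbt2, an imprinted Polycomb gene of the trophoblast on another chromosome (r = 0.97). For Phlda2 they included Sypl, the keratin Krt8, the integrin Itga5 and Ifi30, at r = 0.95 to 0.94. For H19 they included Cald1, H2afy, Pdgfa and Ets2, at r = 0.90 to 0.89, and for Cdkn1c they were Nudt4, Hax1, Usp12, Dusp9 and Eif2s1, at r = 0.90 to 0.87. The lists of 5 shared no gene.

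Among the members themselves, Igf2 correlated with Phlda2 at r = 0.86, with H19 at r = 0.83 and with Cdkn1c at r = 0.66 over the same 17 sections. H19 and Cdkn1c were the least alike of these 4 genes, at r = 0.31, and Cdkn1c and Phlda2 stood at r = 0.77. Cd81 had r = 0.03 with H19 and r = 0.16 with Igf2. These correlations describe shared profiles and were not tested.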

How the data were processed

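Each stage has 1 deposited table of FPKM values on a log2 scale, made by the authors. The scale was taken to be log2(FPKM + 1) from the names of the tables and from values that start at 0. Build mm10, Cufflinks 2.0.2 and TopHat2 2.0.4 are named in the submitters' processing notes, without the annotation or the normalization step. At E5.5 the labels list parts A and B of most sections and the table has 1 column for each. How parts were joined is not given in the sources used here. Columns 10 and 11 were averaged as section 10, because a title places the second in section 10, although another label places it in section 11.

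A gene was tested where 2 or more of the fitted libraries had an FPKM of 1 or more. Tests were 2-sided, by limma 3.58.1 in R 4.3.3 with an intensity trend in eBayes, and called at 0.05 after Benjamini-Hochberg adjustment over all genes tested. A straight line in section number was fitted to each stage, and a change is the fitted log2 difference from first to last section. Where a profile is a step, this difference can exceed the range of the values, and its error includes the misfit of the line. VE libraries were left out of these fits and compared with sections 6 and 7 without a block. Differences between genes were tested by permuting section numbers, exactly below 10 sections and with 100000 resamples otherwise. The labels do not say whether sections of a stage were replicated in other embryos, so the spread is that between sections. Coordinates are from GENCODE vM21, and sequences are from RefSeq. The members and the gene lists were chosen with earlier results of these data known. The 6 members were named throughout, as were up to 4 genes of each other list with the smallest p at E5.75 and the 5 genes most like each of 4 members, apart from some that are not reported here. Phlda1, Ascl2, Ctsd and the markers within sections 10 to 19, Gapdh, and the noncoding genes of the cluster, were named after their values were seen. The scripts were tested on simulated data. Alternatives changed the pseudocount (0.1 or 5), the filter (none, or FPKM of 5), the scaling (quantile, or a common sum without Rn45s), a covariate for detected genes and the sections used, each section left out in turn. Plots used matplotlib 3.10.9 (Python 3.11.15).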

Additional observations from a re-analysis of the deposited data

Results flagged for a closer look

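Among 23 checks of whether 1 section stood apart from the others of its group, 2 values did so. The check assumes normally spread values, so its error rate does not hold for groups with many values of 0. Cd81 at E5.25 stood at 2.71 in section 6, against 0 to 0.23 in the other 6 sections. Slc22a18 at E5.75 stood at 0.20 in section 6, against 0 in the other 7 of sections 1 to 8. With all others at 0, any value above 0 would have been marked, so this mark says nothing about its size.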

How the results depend on the processing

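No change that the report gives as passed turned its direction under the alternatives recomputed for it, and the whole-axis E5.75 changes of Igf2, H19 and Phlda2 passed under all 25. The cause of the shifts below was not tested, except that fewer sections or genes enter some fits. Depth is unknown, and low libraries limit what 0 means.

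At E5.25 the count of genes past the threshold was 29, with 1 member. It was 1006 genes and 2 members with a pseudocount of 0.1, 877 and 3 with a filter at 5, and 18 genes without sections 1 and 2. It was 0 genes and 0 members with a pseudocount of 5, with no filter, after quantile normalization and with detected genes as a covariate. Leaving out 1 section gave 3 (section 6) to 818 (section 4) genes and 0 to 3 members. Cdkn1c turned to -0.0326 with the covariate.

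At E5.5 the count was 2547 genes, with 2 members, against 1168 after quantile normalization, 1476 without Rn45s, 309 without sections 1 and 2 (1 member) and 0 with the covariate (0 members). Taken as sections 10 and 11, the last columns gave 2889 genes. Cdkn1c turned to -1.41 with the covariate and to -0.61 without sections 1 and 2. Cd81 turned to -0.12 after quantile normalization and to -0.44 without sections 1 and 2.

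At E5.75 the count was 2339 genes (2108 higher and 231 lower), with 5 members. It was 1345 after quantile normalization (845 higher and 500 lower), 624 with the covariate (405 and 219, 3 members) and 1407 without sections 1 and 2 (1033 and 374, 3 members). Kcnq1ot1 turned to -0.80 after quantile normalization. With the covariate Cd81 turned to -0.34, Phlda1 to -0.0333 and the alpha globin row to 0.84, which stood between -2.18 and 0.39 when 1 section was left out. In sections 1 to 8 the count was 0, with 292 at a filter of 5, 1 without sections 1 and 2, and 0 to 453 when 1 section was left out. There Igf2 turned to -0.39 after quantile normalization, H19 to 3.39 with the covariate and to 2.85 without sections 1 and 2, and Cd81 to -2.82 with the covariate. In sections 10 to 19 the count was 166, with 96 without a filter and 37 (without section 18) to 229 (without section 15) when 1 section was left out. Igf2 turned to -0.15 there after quantile normalization. The Igf2 and H19 differences to Phlda2 passed there under all 11 alternatives, which were chosen after the values were seen.

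For VE against sections 6 and 7 the count was 3671 genes and 2 members. It was 1688 genes and 1 member with a filter at 5, 0 and 0 after quantile normalization, where Igf2 turned to 1.03, and 2297 against sections 3 to 8. Leaving out 1 library gave 2 (section 6) to 5624 (VE of section 7) genes and 0 to 4 members. With section number as a replicate block 3800 genes passed. The block changed no call of a member. The correlation of deviations of the section 6 libraries was 0.000773. With 2 pairs this cannot show whether libraries that share a section number are paired.

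Among differences between genes, Igf2 minus Phlda2 at E5.5 passed with a pseudocount of 0.1 at -4.63, and ranged from -3.72 to -1.62 when 1 section was left out. Igf2 minus Cdkn1c at E5.25 did not pass with a pseudocount of 0.1 at 4.73 or without sections 1 and 2 at 3.52, and ranged from 3.01 to 4.19 when 1 section was left out. At E5.5 the same pair passed with a pseudocount of 5 at 2.88 and without sections 1 and 2 at 4.47, and ranged from 2.71 to 5.30. H19 minus Phlda2 at E5.5 did not pass with a pseudocount of 5, at -3.22, and at E5.75 it ranged from -4.88 to -2.73. H19 minus Cdkn1c turned to -1.02 at E5.5 with a pseudocount of 0.1 and ranged from -0.0735 to 3.24 there. It passed at E5.25 with a pseudocount of 5 at 3.24, and at E5.75 without sections 1 and 2 at 6.06.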
